A study of Drosophila melanogaster with 2 samples.

Results

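The regions described here are the binding peaks of the tagged protein CG13123-GFP that lie at one-sided promoters, where protein-coding genes leave in 1 direction at most. They were chosen by position within the deposited list. A peak of the deposited list past the irreproducible discovery rate (IDR) threshold was kept when its summit lay within 500 bp of any annotated transcription start site (TSS). It was left out when start sites of different protein-coding genes on both strands lay within that distance, which makes the promoter divergent. This left 902 peaks, 33.4% of the IDR list, beside 618 (22.9%) at divergent promoters and 1184 (43.8%) away from promoters. Within the IDR list, signal played no part in the choice.

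The data are chromatin immunoprecipitation followed by sequencing (ChIP-seq) on whole Drosophila melanogaster embryos, males and females pooled, of 0 to 24 h. The strain carries a stable transgene whose product is CG13123 with GFP at its C terminus, and an antibody to GFP pulled down the sonicated chromatin, whose labelled size range of 200 to 800 has no unit. Both samples belong to 1 group, CG13123-GFP embryos, as biological replicates 2 and 3. The labels and files do not name the promoter that drives the transgene, and neither an input control nor a precipitation from untagged flies was analysed here. Signal that a GFP precipitation would give without the tagged protein therefore cannot be told apart from binding. The lists hold peaks and no read counts, so the depth is unknown. A whole embryo mixes all its cell types, and no cell type was assigned.

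A promoter is the DNA around a start site where general transcription factors and RNA polymerase II assemble. Insulator proteins, pioneer factors and gene-specific activators often bind in the stretch just upstream of it, while in flies many sequence elements that choose the start site lie at the start site itself or a little downstream. Neighbouring fly genes frequently share a short divergent promoter, which is common among broadly expressed genes, whereas developmental genes more often stand at a promoter of their own.

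The sequences at the summits of the strongest one-sided peaks are shown because they are the DNA at the centre of the highest signals. Each is the 101 bases of the Release 6 genome (dm6) centred on the summit, written 5′ to 3′ along the strand of the nearest gene. Capitals mark ACAGTG or ACACTG on either strand (CACTGT and CAGTGT are their reverse complements), 2 words that share the core CAGTG. The members shown are 6 of the 11 one-sided peaks of highest signal. The other 5, those of CG30122, Uhg4, px, CG1888 and mRpL41, lie on a chromosome arm whose sequence is not printed here. CG14100 (chr3L:19590557-19590657, minus strand) had a signal of 1208 with its summit 83 bp upstream of the TSS. Ugalt (chrX:2703845-2703945, minus strand), a UDP-galactose transporter gene, had 1012 at 43 bp upstream. The long noncoding RNA gene lncRNA:CR31840 (chr2L:14024030-14024130, minus strand) had 908 at 19 bp downstream. Ppcs (chr3R:19148076-19148176, minus strand), a gene of coenzyme A synthesis, had 876 at 216 bp upstream. ph-p (chrX:2137285-2137385, minus strand), which encodes a Polyhomeotic protein of the Polycomb group, had 714 at 480 bp upstream. larp (chr3R:28326547-28326647, minus strand), which encodes an RNA-binding La-related protein, had 678.5 at 333 bp upstream. The 101 bases of Ppcs hold ACACTG. In the wider window of 100 bp to each side, 5 of the 11 hold at least 1 of the words, namely Uhg4 and px (both words), CG14100 and Ppcs (ACACTG) and larp (ACAGTG). Over all one-sided members, 309 of 902 such windows hold at least 1 of them.
CG14100: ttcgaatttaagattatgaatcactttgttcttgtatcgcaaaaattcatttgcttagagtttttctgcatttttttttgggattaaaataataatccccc
Ugalt: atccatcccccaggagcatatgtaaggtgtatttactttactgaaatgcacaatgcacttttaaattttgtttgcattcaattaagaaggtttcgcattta
lncRNA:CR31840: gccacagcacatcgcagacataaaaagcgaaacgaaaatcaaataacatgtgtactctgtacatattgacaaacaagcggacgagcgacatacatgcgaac
Ppcs: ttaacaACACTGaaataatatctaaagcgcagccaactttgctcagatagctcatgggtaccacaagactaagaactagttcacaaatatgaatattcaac
ph-p: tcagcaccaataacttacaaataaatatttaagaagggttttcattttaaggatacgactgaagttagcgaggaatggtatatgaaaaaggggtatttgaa
larp: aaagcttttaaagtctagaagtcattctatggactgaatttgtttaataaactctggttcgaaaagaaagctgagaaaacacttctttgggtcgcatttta

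The next 4 sequences show how ACAGTG lies at different places in the window. They belong to the members of highest signal whose 101 bases hold the word, again leaving out the chromosome arm that is not printed. lncRNA:CR44619 (chrX:12752306-12752406, plus strand) had a signal of 524 with its summit 489 bp downstream of the TSS. TRAM (chrX:935296-935396, plus strand), an endoplasmic reticulum translocation protein gene, had 368 at 80 bp upstream. fkh (chr3R:28585442-28585542, minus strand), the Forkhead transcription factor gene of gut and salivary gland, had 332 at 228 bp upstream. lncRNA:CR44868 (chr2L:15912165-15912265, plus strand) had 274 at 343 bp upstream.
lncRNA:CR44619: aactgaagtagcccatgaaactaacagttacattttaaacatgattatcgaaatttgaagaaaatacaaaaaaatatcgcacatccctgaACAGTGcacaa
TRAM: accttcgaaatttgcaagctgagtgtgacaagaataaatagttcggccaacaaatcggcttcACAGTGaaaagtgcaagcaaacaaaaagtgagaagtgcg
fkh: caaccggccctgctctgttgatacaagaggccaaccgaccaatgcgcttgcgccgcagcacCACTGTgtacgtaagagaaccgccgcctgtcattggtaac
lncRNA:CR44868: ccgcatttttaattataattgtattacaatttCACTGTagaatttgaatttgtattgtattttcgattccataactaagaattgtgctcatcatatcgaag

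One-sided promoters were a larger share of the IDR list than of the weaker list it came from. The relaxed list of both replicates together holds 30000 peaks and background regions, and the IDR list is the 9.01% of highest signal in it. Of the 7124 relaxed peaks at one-sided promoters, 902 were in the IDR list (12.7%, 95% Wilson interval 11.9 to 13.5%). The share was 32.9% (30.9 to 35.1%) at divergent promoters and 5.64% (5.33 to 5.96%) away from promoters, against 9.01% over all peaks. In each replicate's own list, cut to as many peaks as the IDR list holds, the share at one-sided promoters was 12.4% in replicate 2 and 14.2% in replicate 3, below 33.0% and 34.5% at divergent promoters. Wilson intervals here and below cover counting error only, and peaks are not replicates, so no p-value was attached to any comparison of peaks.

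The one-sided summits lay mainly upstream of the start site. Of 902 summits, 152 were downstream of the nearest TSS (16.9%, 14.6 to 19.4%), 749 were upstream (83.0%, 80.4 to 85.3%) and 1 fell on it. The median offset was 143 bp upstream (offset -143 bp, quartiles -240 and -47), and the median distance in either direction was 167.5 bp. In the replicates' own highest peaks 80.4% of 913 summits were upstream in replicate 2, with a median offset of -134 bp, and 83.7% of 949 in replicate 3, with a median of -138 bp. The weaker one-sided peaks were placed differently. Of 6016 one-sided relaxed peaks over 500 bp from every IDR summit, 56.9% (55.6 to 58.1%) were upstream, with a median offset of -35 bp and about the same median distance, 168 bp. The stretch from 300 to 1 bp upstream held 609 members (67.5%), against 42.8% of those weaker peaks.

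**Figure D1:**
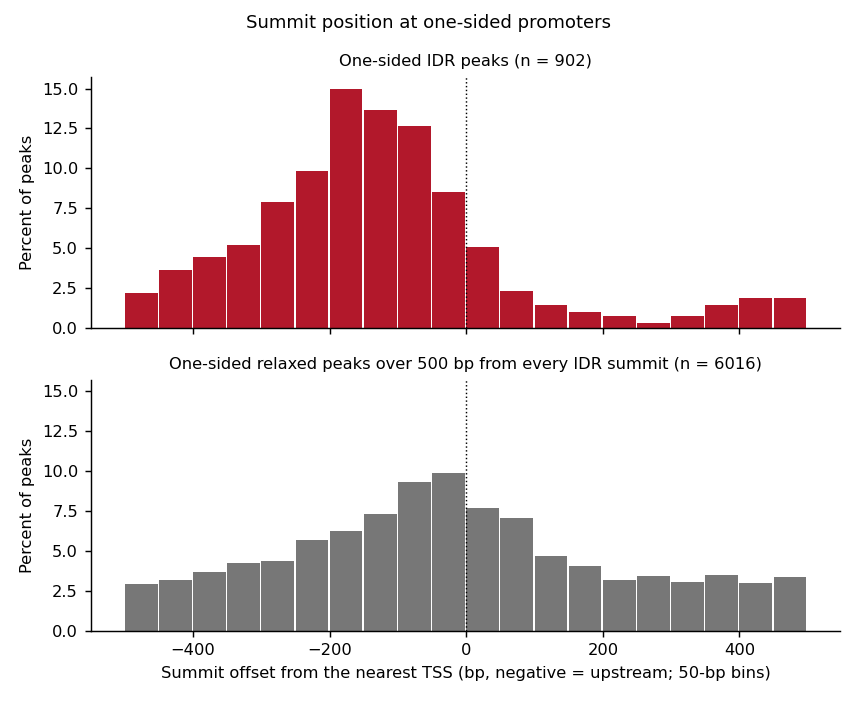
Histograms of summit offset from the nearest TSS in bp (x axis, 50-bp bins, negative is upstream) as percent of peaks (y axis), for the 902 one-sided IDR peaks (top) and the 6016 weaker one-sided peaks (bottom). The IDR peaks are highest from 200 to 151 bp upstream (15.0%), whereas the weaker peaks are spread more evenly around the start site.

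Upstream summits were the majority on both strands, on every chromosome arm and in every layout examined. Members on the plus strand were upstream in 83.6% of 414 cases and those on the minus strand in 82.6% of 488. Where the nearest gene has 1 annotated TSS, 84.2% of 406 summits were upstream, and where it has several, 82.1% of 496. By chromosome arm the share ran from 79.6% on 2R to 86.5% on 3R, and all 7 members on chromosome 4 were upstream. The 53 members with genes of both strands nearby, of which at most 1 strand is protein-coding, had the lowest share among these groups at 69.8% (56.5 to 80.5%). At divergent promoters the share was 83.3%, but there a summit between the start sites is upstream of both by layout, so this value says nothing of a side. Divergent summits lay nearer to a TSS, with a median distance of 89 bp against 167.5 bp in one-sided members.

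The upstream share moved with peak strength. Among one-sided peaks of the relaxed list, 87.1% (81.7 to 91.0%) of those ranked 1 to 500 by signal were upstream. The share was 80.7% for ranks 501 to 1000, 83.9% for 1001 to 2000, 77.6% for 2001 to 4000 and 66.3% for 4001 to 8000. It was 56.2% for ranks 8001 to 16000 and 50.4% (48.5 to 52.3%) for 16001 to 30000, where upstream and downstream were about equal. Replicate 2 alone gave 85.5% in its highest class and 49.5% in its lowest, and replicate 3 gave 87.2% and 51.7%. In the list of both replicates, the intervals of neighbouring classes overlapped down to ranks 2001 to 4000 (74.4 to 80.6%). That interval lay below the one of ranks 1 to 500, and the classes below rank 4000 were lower still.

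**Figure D2:**
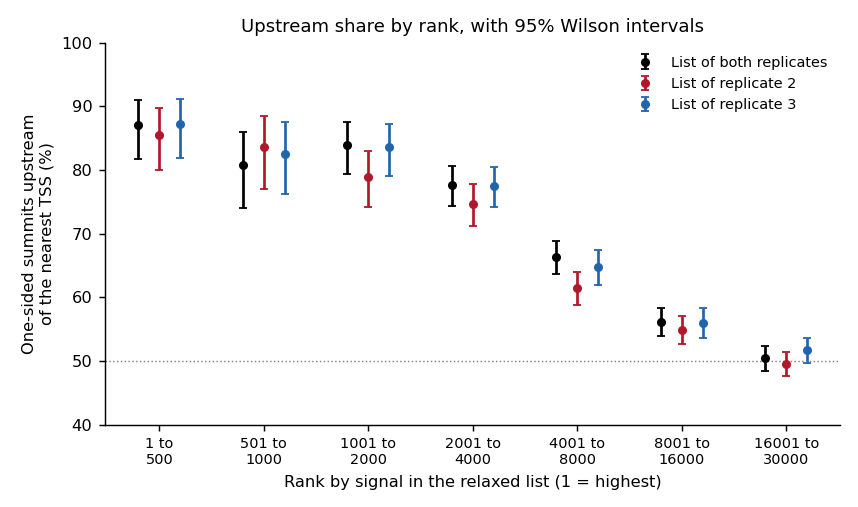
Percent of one-sided summits upstream of the nearest TSS (y axis, from 40 to 100) by rank class in the relaxed lists (x axis, rank 1 is the highest signal), with 95% Wilson intervals as bars, for the list of both replicates and each replicate alone. In each of the 3 lists the share is above 85% in the highest class and near 50%, the dotted line, in the lowest.

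The annotation under the summits shows where the members sit. Of the 902 summits, 429 were intergenic (47.6%), 294 in introns (32.6%), 113 in 5′ untranslated regions (UTRs, 12.5%), 45 in noncoding exons, 19 in 3′ UTRs and 2 in coding sequence. Among the weaker one-sided peaks intergenic summits made up 31.9%, introns 26.5%, 5′ UTRs 23.2% and coding sequence 8.16%. Upstream summits were not all outside genes. Of 749, 427 were intergenic (57.0%), 228 lay inside their own gene between its alternative start sites (30.4%) and 94 inside another gene (12.6%). Of the 152 downstream summits, 76 lay in 5′ UTRs, with a median offset of 48 bp.

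Signals overlapped widely between promoter classes and between positions. The signal of one-sided members ran from 75.6 to 1679, with a median of 115 (quartiles 91.4 and 173). Divergent members had a median of 125, and members away from promoters 106. The one-sided minus divergent difference was -9.16, and -3.66 and -5.85 in the own lists of replicates 2 and 3, small beside the quartile range of either class. Among the 50% of IDR peaks of highest signal it was reversed, at 6.66. Downstream members had a median of 111 and upstream members 116, a difference of -4.68 that was -7.66 in replicate 2 and -0.043 in replicate 3. With a 250 bp window around the TSS it was 1.10, so no side was higher in signal beyond the choice of window. By 100-bp bin, the median was highest from 300 to 201 bp upstream (134, n = 160) and was 102 from 100 to 1 bp upstream (n = 191). Mean GC content also differed between these bins, 33.6% from 300 to 201 bp upstream and 39.5% from 100 to 1 bp upstream, and its part in the signal was not tested.

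**Figure D3:**
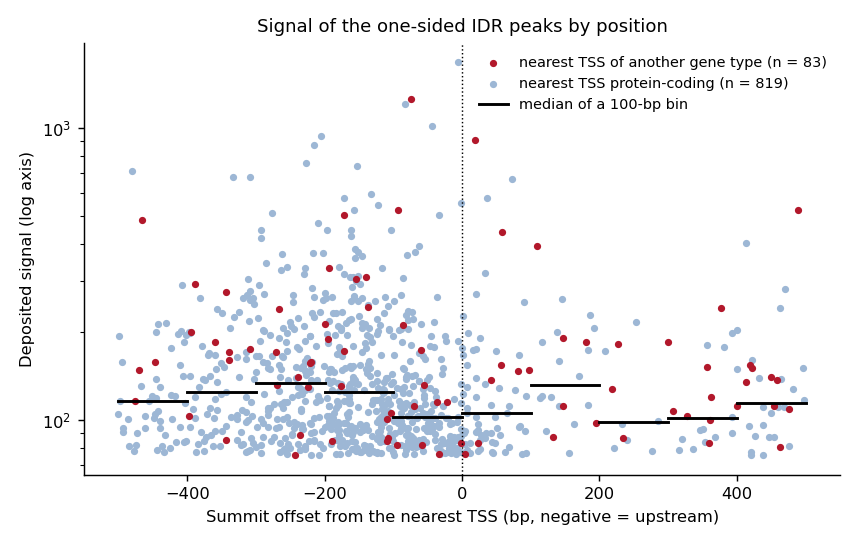
Deposited signal of each of the 902 one-sided IDR peaks (y axis, log scale) against summit offset from the nearest TSS in bp (x axis). Black lines are medians of 100-bp bins, and the 83 members whose nearest TSS is of another gene type than protein-coding are in red. High signals occur on both sides, and 33 of the 74 points of ncRNA genes lie right of the start site, against 117 of the 819 blue points.

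The side differed by gene type. For 74 members (8.20%) the nearest TSS belonged to a noncoding RNA (ncRNA) gene and for 819 (90.8%) to a protein-coding gene. Of the 74, 33 summits were downstream (44.6%, 33.8 to 55.9%), against 117 of 819 (14.3%, 12.1 to 16.8%) at protein-coding start sites. In replicate 2's own list the shares were 44.4% of 81 and 16.7% of 820, and in replicate 3's 45.1% of 82 and 13.6% of 858. Among the weaker one-sided peaks the types were closer, at 45.8% of 684 for ncRNA genes and 42.0% of 5121 for protein-coding ones. The ncRNA members also had the higher median signal, 148 against 114, and in the own lists 82.9 against 67.7 in replicate 2 and 57.5 against 47.5 in replicate 3. Many annotated ncRNA genes are known from few transcripts, so their start sites are less certain than those of protein-coding genes, and the part of this in the difference was not tested. Some ncRNA members also have an opposite protein-coding start site nearby, at 88 bp from the summit for asRNA:CR45928. Members with genes of both strands nearby were downstream in 30.2% of 53 cases, and the part of this layout was not tested either.

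The strongest ncRNA members show the range. Uhg4 is a host gene whose introns release small nucleolar RNAs (snoRNAs), which guide chemical changes of ribosomal RNA. It had a signal of 1261, with 792 in replicate 2 and 469 in replicate 3, and its summit lay 74 bp upstream. The peak at lncRNA:CR31840 had 583 and 330 in replicates 2 and 3 and lay in a noncoding exon. lncRNA:CR44619 carried a pair of members, 524 at 489 bp downstream and a second, of 485, at 466 bp upstream, so both its summits were far from the start site. The other types were few. The nearest TSS was that of a small nuclear RNA (snRNA) gene in 3 members, a snoRNA gene in 2, a tRNA gene in 2 and a pseudogene in 2. The highest among them was tRNA:Tyr-GTA-1-8 with a signal of 331 at 194 bp upstream. tRNA, snRNA and some other genes exist in near-identical copies, and the sources used here do not say how reads that match several copies were placed.

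Both replicates held nearly all members. A relaxed summit lay within 100 bp of 889 members in replicate 2 and of 871 in replicate 3, and within 100 bp in both for 859 (95.2%, 93.6 to 96.4%). In 644 members (71.4%) both of these peaks were in the cut list of their replicate, against 74.8% at divergent promoters. The members were chosen from a list of high joint signal, so presence in both replicates is partly fixed by that choice. For 824 of the 859 (95.9%) both replicates placed the summit on the same side of the TSS. Over these 859 peaks, all from the same 2 libraries, Spearman's rho between the replicates' signals was 0.725 and Pearson's r of the log2 signals 0.810, given as a description. Replicate 2 gave the higher signal at 761 of them. The median ratio of replicate 2 to replicate 3 over the 859 was 1.41 (log2 0.50).

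**Figure D4:**
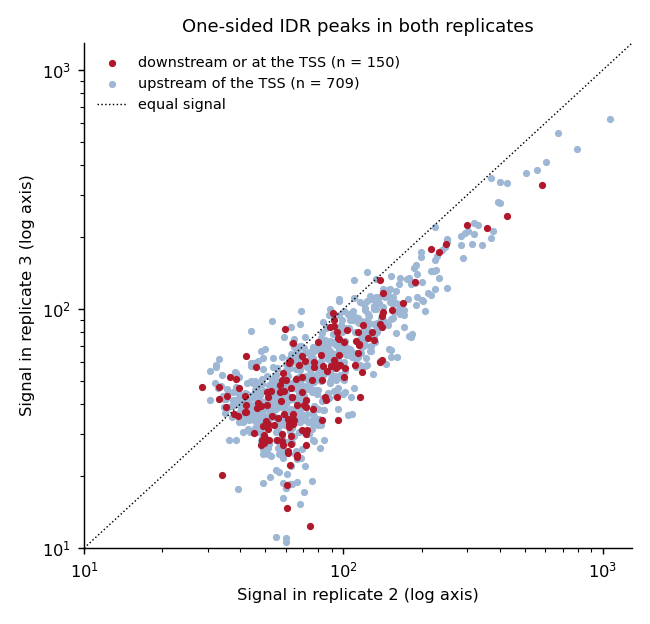
Signal of the 859 one-sided members with a summit in both replicates, replicate 2 on the x axis and replicate 3 on the y axis, both log scales, with the line of equal signal. The 150 members downstream of or at the TSS (red) and the 709 upstream of it (blue) overlap along 1 band that lies mostly below the line.

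Single members show how the values spread. The strongest, at CG30122, had a signal of 1679, with 1062 in replicate 2 and 624 in replicate 3, and its summit was 6 bp upstream of the TSS. CG14100 had 670 and 543 in the replicates and Ugalt 605 and 410. px, or plexus, a gene of wing vein patterning, had 940, with 556 and 382, at 205 bp upstream in an intron. Of the 20 strongest, 4 lay downstream of their TSS, and 16 lay upstream. PNPase, which encodes a mitochondrial RNA-processing enzyme, had 669 at 73 bp downstream, with 428 and 245 in replicates 2 and 3. GstE13, a glutathione S-transferase gene, had 574 at 36 bp downstream, with 357 and 218. Replicate 2 was higher than replicate 3 at each of these 6 members.

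The 500 bp limit cut through the tail of the distribution and not through a gap. Just inside it were peaks of htl, the FGF receptor Heartless, at 500 bp upstream with a signal of 105, of CG43736 at 499 bp upstream with 194 and of CG5854 at 498 bp downstream with 117. Just outside were peaks of CG33725 at 502 bp downstream with 94.2, of lncRNA:CR44363 at 503 bp downstream with 248 and of prage at 503 bp upstream with 232. At the low end of signal stood dlg1 and lncRNA:CR45036 with 75.9 each and CG9003 with 75.6. Downstream members had a second, small rise far from the TSS, with 3 members from 250 to 299 bp and 17 each from 400 to 449 and from 450 to 500 bp.

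Several members could belong to 1 gene. The 902 peaks had 837 distinct nearest genes, of which 781 had 1 member, 49 had 2, 5 had 3 and 2 had 4. Moe, which encodes the cytoskeletal linker Moesin, had 4 members with signals between 91.3 and 116 at different start sites. Rtnl1, the reticulon gene of the endoplasmic reticulum, had 4 between 86.5 and 446. Those with 3 were larp, dnc (a cAMP phosphodiesterase), Ptpmeg2 (a tyrosine phosphatase), spi (the EGF receptor ligand Spitz) and l(3)neo38. Some of these peaks overlap and are not separate places. In overlapping intervals, dnc had summits 398 and 196 bp upstream of the same start site, and spi 157 and 357 bp upstream of the same start site. Intervals at l(3)neo38 overlapped too. Ptpmeg2's 3 summits lay 199, 175 and 170 bp upstream of 3 start sites, with signals of 272, 234 and 150. ph-p had its peak of 714 at 480 bp upstream, with 371 and 352 in replicates 2 and 3, and another of 403 at 413 bp downstream, with 233 and 174. ph-p and its neighbour ph-d are related tandem copies, so some reads there may be shared between them. ph-d had a member of 77.4 at 63 bp downstream.

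Genes of known roles were counted by list. A gene was tested when a relaxed one-sided summit lay within 500 bp of one of its start sites, and called when such a summit was in the IDR list, which held for 933 of 5682 genes (16.4%). By type 113 of 924 ncRNA genes (12.2%), 9 of 169 tRNA genes (5.33%) and 795 of 4428 protein-coding genes (18.0%) were called. At divergent promoters, counted in the same way, 1241 of 3187 genes (38.9%) were called. The cytoplasmic ribosomal proteins, the protein parts of the ribosome, had the highest share of any list with over 20 tested genes. Of 53, 26 were called at one-sided promoters (49.1%, 36.1 to 62.1%) and 25 of 33 at divergent ones (75.8%, 59.0 to 87.2%), both above the shares over all genes. Heat shock and chaperone genes had 6 of 14 at one-sided promoters (42.9%, 21.4 to 67.4%) and 3 of 12 at divergent ones. tRNA genes (9 of 171, 5.26%, 2.79 to 9.70%) and snoRNA and snRNA genes (12 of 123, 9.76%, 5.67 to 16.3%) were below 16.4%. Only 2 members had a tRNA gene as the nearest, and 5 a snoRNA or snRNA gene. Most genes called in these 2 lists thus had a summit that lay nearer to another gene. The Wilson interval of each of the other 19 lists includes 16.4%, so their shares at one-sided promoters could not be told from that over all genes.

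Among those 19 lists are the genes of growth and of development. The mitochondrial ribosomal proteins had 4 of 13 called at one-sided promoters, and 20 of 47 (42.6%) at divergent ones. Oxidative phosphorylation genes had 3 of 29 and 14 of 33, RNA polymerase II and general factors 3 of 15 and 12 of 24, and translation factors 7 of 26 and 7 of 15. Signalling pathway components had 12 of 50 called (24.0%, 14.3 to 37.4%) and 4 of 25 at divergent promoters. Muscle genes had 5 of 17 (29.4%, 13.3 to 53.1%), with 1 gene to test at a divergent promoter, which was not called. Neural genes had 2 of 12 and segmentation and Hox genes 2 of 14, and neither list had a gene to test at a divergent promoter. Ecdysone response and nuclear receptor genes had 4 of 14, Polycomb and Trithorax group genes 3 of 15, architectural and promoter proteins 3 of 11, DNA replication and cell cycle genes 4 of 23 and snoRNA host genes 2 of 6. Proteasome subunits had 1 of 11, nuclear transport 1 of 9, aminoacyl-tRNA synthetases 1 of 7 and splicing and mRNA processing 0 of 12. None of 18 cuticle genes (0 to 17.6%) and none of 10 chemoreceptor genes (0 to 27.8%) were called.

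Leaving out 1 library moved the share of several of these small lists by 1.5 times or more. Without replicate 2, aminoacyl-tRNA synthetases had 0% called and segmentation and Hox genes 0%, against 14.3% each with both. Neural genes had 9.09% without it, against 16.7%, and oxidative phosphorylation genes 6.90%, against 10.3%. Splicing and mRNA processing genes had 25% without it, proteasome subunits 22.2% and nuclear transport 20%, against 0%, 9.09% and 11.1% with both. Without replicate 3, mitochondrial ribosomal proteins had 12.5%, against 30.8%, and architectural and promoter proteins 15.4%, against 27.3%. Proteasome subunits and nuclear transport had 0% without it, aminoacyl-tRNA synthetases 25% and splicing and mRNA processing genes 7.14%.

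The summits of ribosomal protein genes lay close to the start site. The 26 members with a ribosomal protein gene as the nearest had a median distance of 34 bp, against 167.5 bp over all one-sided members, and 24 of the 26 lay within 100 bp, against 258 of 902 (28.6%). In the own lists the median distance was 25 bp in replicate 2 (n = 25) and 23 bp in replicate 3 (n = 26). Offsets ran from 182 bp upstream to 35 bp downstream. The weaker one-sided peaks near ribosomal protein genes had a median distance of 49 bp (n = 31), so nearness was not limited to IDR peaks. RpL27A was the highest, with 554, and 331 and 225 in replicates 2 and 3, at 2 bp upstream. RpS28b had 501, with 295 and 207, at 33 bp upstream, and RpL23A had 256, with 151 and 107, at 99 bp upstream. The median signal of the 26 was 117, near the 115 of all one-sided members.

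All 5 muscle members and all 6 chaperone members were upstream, as were 83.0% of all one-sided members. Counts this small do not set the side of either list apart from that share. The muscle members lay between 332 and 221 bp from the TSS, and with a window of 250 bp in place of 500 bp the called share of the list was 8.33%. Msp300, a nuclear anchoring protein, had 225, with 115 and 107 in replicates 2 and 3. tin, the heart determinant Tinman, had 193, with 125 and 76.9, and sls, a titin-like sarcomere protein, had 185, with 105 and 83.5. rols had 99.7, with 61.1 and 37.0. Tm1, a tropomyosin gene, had 82.7, with 42.5 in replicate 3 and no relaxed summit within 100 bp in replicate 2. The weaker one-sided peaks at muscle genes had a median offset of -1 bp (n = 27), against -311 bp in the 5 members. The chaperone members lay from 304 to 83 bp upstream, with a median offset of -124.5 bp, against -143 bp over all one-sided members. The small heat shock protein genes Hsp27 and Hsp26 had 308 and 135, the DnaJ-type gene mrj had 260.5 and the Hsp90 gene Hsp83 had 166.

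Signalling members were upstream in 12 of 15 cases, about the share of all one-sided members (83.0%). Among ligands and inhibitors, spi had 265 at 157 bp upstream, with 142 and 121 in replicates 2 and 3. aos, the EGF receptor inhibitor Argos, had 154 at 149 bp upstream, with 89.3 and 63.2. Among kinases and inner components, sgg, the fly GSK3 kinase, had 232.5 at 183 bp upstream, with 149 and 85.4. cact, the inhibitor of the Dorsal factor, had 212 at 141 bp upstream, with 125 and 87.7. The receptor genes InR and N were low, at 95.6 and 81.1. Stat92E, the transcription factor of the JAK/STAT pathway, had 92.7 and was downstream by 351 bp, in the second rise described above.

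Trl, which encodes the GAGA factor, had 120 at 94 bp downstream, with 85.1 and 42.8 in replicates 2 and 3. grh, the Grainyhead factor of epidermis, had 91.8 at 123 bp downstream, and BEAF-32, an insulator protein, 78.4 at 30 bp upstream. The nuclear receptor gene Eip75B of the ecdysone response had 199 at 9 bp downstream, with 131 and 74.4. Of the patterning genes bcd had 108 at 234 bp upstream and the Hox gene Dfd 81.2 at 352 bp upstream. elav, an RNA-binding protein gene of neurons, had 267 at 246 bp upstream and 165 and 99.9 in replicates 2 and 3.

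Short sequence words were counted within 100 bp of each summit, 201 bases in all, on both strands. The words were chosen with earlier results of these data known, so a higher share at these peaks is a description and no independent support. ACAGTG was in 183 one-sided windows (20.3%, 17.8 to 23.0%). It was in 15.0% of divergent windows, 22.0% of windows away from promoters and 11.2% of windows of the weaker one-sided peaks. Among 23697 windows of equal length centred 143 bp upstream of every annotated start site, 9.09% held it. In the replicates' own lists 20.9% and 18.7% of one-sided windows held it, in replicates 2 and 3. The matches were not gathered at the summit. Of 211, 40.8% lay within 50 bp of it, below the 51.0% of even placement over the window. ACACTG was in 20.4% of one-sided windows, 20.4% of divergent windows and 18.75% of windows away from promoters. It was in 12.8% of the weaker one-sided windows and 9.56% of those around all start sites. At least 1 of these 2 words was in 309 of the 902 one-sided windows. Members with ACAGTG had a median signal of 119 and those without 115. Mean GC content was 36.0% in one-sided windows and 39.6% in the weaker ones, and its part in these shares was not tested.

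The GAGA element, searched as GAGAGAG, was in more one-sided than divergent windows. This word is bound by the GAGA factor, which opens chromatin at many developmental promoters. It was in 55 of 902 one-sided windows (6.10%, 4.71 to 7.85%) and 2 of 618 divergent ones (0.324%, 0.0888 to 1.17%). In replicate 2's own list it was in 6.90% of one-sided and 0.789% of divergent windows, and in replicate 3's in 6.43% and 0.643%. The one-sided share was near those of the weaker one-sided peaks (4.95%) and of all start sites (5.83%). px, CG31886, Toll-7, a Toll receptor family gene, and mrj were among the members with it.

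Ohler 7, the DRE and TATAAA were less frequent in one-sided than in divergent windows. The core promoter element known as Ohler 7 was in 8.20% (6.59 to 10.2%) of one-sided and 16.02% (13.3 to 19.1%) of divergent windows, and in 1.52% of those away from promoters. The DNA replication element (DRE), searched as TATCGATA, was in 6.10% and 11.3%, and in 0.338% away from promoters. In both cases the order held in the own list of each replicate. Divergent summits lay nearer to a TSS, at a median distance of 89 bp against 167.5 bp in one-sided members. The part of this distance in the shares of these elements, here and by side, was not tested. Both elements were still more frequent in one-sided members than in the weaker one-sided peaks, at 4.21% for Ohler 7 and 3.94% for the DRE. TATAAA was in 36.1% of one-sided, 43.9% of divergent and 28.2% of weaker one-sided windows, and its order was not examined in the own lists. Mean GC content was 36.0%, 33.8% and 39.6% in these sets, in the same order. TATAAA holds only A and T, and the part of GC content in its shares, here and by side, was not tested. By side, Ohler 7 was in 3.95% (1.82 to 8.34%) of downstream and 9.08% (7.22 to 11.4%) of upstream windows, and TATAAA in 27.6% and 37.9%. Motif 1, another core promoter element, was in 2.44% (1.62 to 3.67%) of one-sided and 1.46% (0.768 to 2.74%) of divergent windows. The Zelda site CAGGTAG was in 0.665% and the CTCF site in 0.887% of one-sided windows.

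**Figure D5:**
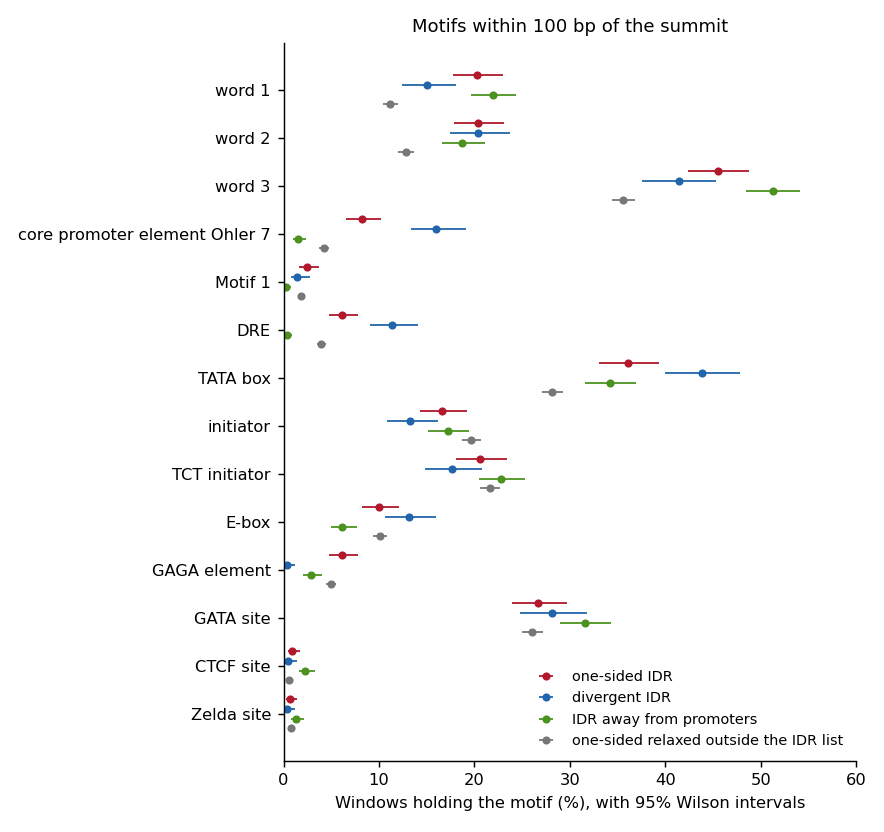
Percent of windows of 100 bp to each side of the summit that hold each motif on either strand (x axis, points with 95% Wilson intervals) in 4 sets of peaks. Word 1 is ACAGTG, word 2 is ACACTG and word 3 is their core CAGTG. The motifs were chosen with earlier results of these data known. The one-sided IDR peaks (red) lie above the weaker one-sided peaks (grey) for all 3 words, and far above the divergent IDR peaks (blue) for the GAGA element.

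CAGTG, the core of both words, was in 45.6% of one-sided windows and 35.6% of the weaker ones. It was in 41.4% of divergent windows and 51.3% of those away from promoters. The initiator was in 16.6% of one-sided and 19.7% of weaker windows, and the TCT initiator of ribosomal protein genes in 20.6% and 21.6%. The E-box CAGCTG was in 9.98% and 10.1%, and the GATA site in 26.7% and 26.1%. Only 8 of the 211 ACAGTG matches overlapped an Ohler 7 match, while 19 of 208 ACACTG matches overlapped a Motif 1 match. Of the 22 one-sided windows with Motif 1, 19 also held ACACTG. A motif match is a description of letters in a window and not of binding by the factor named.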

How the data were processed

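ChIP-seq peaks of CG13123-GFP embryos, biological replicates 2 and 3, were analysed on build dm6. Per the labels and the deposited lists of files, the authors deposited relaxed lists of peaks and background for each replicate and for both together, 30000 entries each, and the IDR list of 2704 peaks. The sources used here name no aligner, peak caller, IDR threshold or depth (not given in the sources used here). Controls were not analysed here. Each peak carries a deposited signal, whose scale is not given, a deposited −log10 q-value, and a summit offset in bp as deposited by the authors. In the IDR list the −log10 q-value of one-sided peaks ran from 3.21 to 3.68 and served only as a description. In 76.2% of members the summit was the midpoint of the interval, so the placement of a summit is only as fine as the peak caller made it.

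From these values, summits were set against the 5′ ends of all transcripts of Ensembl release 115, transposable elements left out. Offsets run along the strand of the gene. Ties went to protein-coding genes. Replicates were matched by summits within 100 bp, and each replicate's own 2704 highest peaks were classed in the same way. Sequence came from the Release 6 genome. Shares carry 95% Wilson intervals, and no test was run because there is 1 group and peaks are not replicates. The 23 gene lists, of which 30 symbols matched no gene, the 14 motifs and the members were chosen with earlier results of these data known. Named genes are the 20 members of highest signal, up to 3 per list and gene type, genes with 3 or more members, those at the 500 bp limit and the far and low ends. Where the text gives further members of a list or element, they were chosen after their values were seen. The functions were tested on simulated peaks. Python 3.11.15, numpy 2.4.6, pandas 2.3.3 and matplotlib 3.10.9 were used. Alternatives were other TSS windows and start-site sets, a shorter list, other summit and sequence distances, and each replicate alone.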

Additional observations from a re-analysis of the deposited data

How the results depend on the processing

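The 12 alternatives gave 75 values for the results named here, of which 42 stayed within the replicate spread, the counting interval or, for a count of peaks or lists, 1.5 times the reported count. The replicate spread is the standard deviation of the values with each replicate left out. Those values thus help to set the limit they are held against. The number of one-sided peaks was 817 and 1048 with TSS windows of 250 and 1000 bp, 837 with protein-coding start sites only, 718 with 1 TSS per gene and 914 with transposable elements, all within 1.5 times of 902. Windows of 250 and 1000 bp gave a share in the IDR list of 14.9% and 10.6%, a median distance of 112 and 233 bp, a one-sided minus divergent signal of -12.9 and -5.79, and a protein-coding share of 93.9% and 88.3%. The downstream share was 24.3% with the 1000 bp window, and downstream minus upstream signal was 1.10 with the 250 bp window, a reversed sign. Protein-coding start sites only gave a downstream share of 14.3% and a one-sided minus divergent signal of -10.7. With 1 TSS per gene the downstream share was 21.6%, the median distance 157.5 bp and the protein-coding share 88.2%. The 50% of IDR peaks of highest signal held 472 one-sided ones, 6.63% of relaxed one-sided peaks, with a median distance of 179 bp, a median signal of 169, a protein-coding share of 88.3% and summits in both replicates for 98.1%. There both signal differences reversed, to 6.66 for one-sided minus divergent and 0.968 for downstream minus upstream. The cause was not tested, except that the shorter list holds fewer peaks by construction. Summits within 50 and 200 bp gave 74.7% and 99.3% present in both replicates, and sequence windows of 50 and 200 bp to each side gave 8.87% and 30.5% with ACAGTG, which follow from the distances.

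With each replicate left out in turn, the share in the highest list ran from 12.4 to 14.2%, the downstream share from 16.3 to 19.5%, the median signal from 48.3 to 68.2, which is on each replicate's own scale, and one-sided minus divergent signal from -5.85 to -3.66. Of 23 gene lists, 13 were above the share over all genes, against 12 to 15 with a replicate left out. Of 69 values for single lists, 43 stayed within the replicate spread, and most lists have under 20 tested genes. This count does not measure stability, because values with a replicate left out set that spread. Proteasome subunits, at 22.2% without replicate 2 and 0% without replicate 3 against 9.09%, counted as within it. With the 250 bp window the called share was 45.5% for aminoacyl-tRNA synthetases, 23.3% for oxidative phosphorylation, 28.6% for neural genes, 15.4% for ecdysone response and nuclear receptors and 1.87% for tRNA genes. The share under protein-coding start sites only, which is fixed by that choice, and presence in both replicates with 1 left out were not run. No paired analysis was possible because there is 1 group. Depth is unknown, so no limit of detection can be given.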

Other observations

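Some one-sided promoters have an opposite protein-coding start site not far beyond the 500 bp limit. This lay over 500 and up to 1000 bp from the summit in 127 members (14.1%). At any distance up to 2000 bp, 234 members (25.9%) had a protein-coding start site on the strand opposite to their nearest TSS. The 234 are not all beyond the limit. They include members nearest to a noncoding gene with the opposite site within 500 bp, such as asRNA:CR45928 at 88 bp from the summit. The upstream share was 79.5% (73.9 to 84.2%) in those 234 and 84.3% (81.3 to 86.8%) in the 668 with none within 2000 bp. Summits of the 234 lay a median of 135.5 bp from a TSS, and those of the 668 a median of 179 bp. The 40 members with several genes on 1 strand had a median signal of 127.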
